A study of Sus scrofa with 207 samples.

Results

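The carnitine shuttle, the route by which long-chain fatty acids enter mitochondria, was followed through the transcripts of 4 genes, CPT1A, CPT1B, CPT2 and SLC25A20, in the muscle of 207 pigs. The genes were chosen by their function, with earlier results of these data known. Their probe sets were those of the array whose only annotated gene symbol is a member. Each gene had 1 such probe set, annotated with gene number 399527 for CPT1A, 399528 for CPT1B, 100519491 for CPT2 and 100524459 for SLC25A20. They are 4 of the 6765 genes that the array measures with a single-symbol probe set, and all 4 matched a pig gene of RefSeq by gene number. All 4 were measured on every array, and 0 of 207 arrays had a member at the floor of the scale.

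Long-chain fatty acids are activated to acyl-CoA outside the mitochondrion, and acyl-CoA does not cross the inner membrane. Carnitine palmitoyltransferase 1, in the outer membrane, moves the acyl group from CoA to carnitine; the translocase SLC25A20 carries acylcarnitine inward in exchange for free carnitine; and CPT2, on the matrix side, returns the acyl group to CoA for beta-oxidation. The first step is inhibited by malonyl-CoA. CPT1A is known as the liver isoform, also made in many other tissues, and its gene is induced by fasting through the PPAR receptors, while CPT1B is known as the muscle isoform.

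The animals were crossbred commercial pigs of the herd Pix(DLxDE), slaughtered at an average weight of 110 kg, and 1 Affymetrix Porcine Genome Array was hybridised per animal. All belonged to a single group with no treatment, and neither sex, sire, age, slaughter day nor which muscle gave the RNA is stated in the labels. Each animal carried a drip loss, the share of its weight that longissimus muscle hung up in the cold loses as fluid (5.37 ± 2.22%, SD, n = 207). All but 8 also carried a fat area measured over the same muscle (15.0 ± 3.15 cm2, SD), and results on fat area are over these animals. Expression was compared with these traits by regression and no animal was sorted into a class; p-values cover the spread between the animals, with 1 array each. In bulk muscle, fewer cells of a type and less RNA per cell cannot be told apart.

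Muscle markers were high in every sample: the medians of 5 skeletal muscle markers lay between 12.71 (DES) and 14.11 (CKM) on the log2 scale. Array medians ranged from 5.96 to 6.18, and precision is limited by how many arrays there are. A set of 24 arrays correlated less well with the others, and another 13 lacked the signal of the spike-in controls. The sample titles carry numbers of unstated meaning, which were grouped into 10 blocks of 100 and form a lower series and a higher series with 33 animals. Transcripts of liver were high in a few samples: the mean of ALB, APOA1, TTR and FGB had a median of 6.09 over all arrays, a highest value of 12.78, and exceeded 9 in 13 arrays. Each of these 3 sets of arrays was left out in turn.

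CPT1A and CPT1B varied most between animals, and CPT2 least. CPT1A, the isoform linked to fasting, ran from 6.43 through a median of 7.56 to 8.91 on the log2 scale, with a mean of 7.54 ± 0.444 (SD, n = 207), a 5.58-fold span between the lowest and the highest animal. Its SD stood at percentile 94.5 of all probe sets, whose median SD was 0.246. Between the quartiles, at 7.215 and 7.86, the range was still 1.56-fold.

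CPT1B, the muscle isoform, ran from 6.35 through 7.80 to 9.13, with a mean of 7.80 ± 0.334 (SD, n = 207). Its whole span was 6.87-fold, but between the quartiles it was 1.27-fold, so that most animals lay close together and a few far away. The SD stood at percentile 83.7. Both its lowest and its highest animal were measured on arrays of the 24 with low correlation, in which the SD of CPT1B was 0.551 against 0.297 in all others.

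SLC25A20, the translocase between both enzymes, ran from 8.03 through 8.89 to 9.61, with a mean of 8.89 ± 0.249 (SD, n = 207), a 2.99-fold span, and an SD at percentile 51.8. It reached its highest and its lowest value in the same animals as CPT1B. In the first of these CPT1B was at 9.13 and SLC25A20 at 9.61, with a fat area of 14.0 cm2 and a drip loss of 4.9%. In the other CPT1B was at 6.35 and SLC25A20 at 8.03, with a fat area of 11.4 cm2 and a drip loss of 5.66%, and CPT1A stood near its median there, at 7.64. Both were low-correlation arrays.

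CPT2 ran from 4.87 through 5.29 to 5.74, with a mean of 5.29 ± 0.182 (SD, n = 207) and a span of only 1.83-fold. Its SD stood at percentile 9.53, and its mean was below the median of all probe set means (6.10). Of the 64 reporter control probe sets on the array, which target sequences foreign to the pig, 19 had a mean above that of CPT2 and their median was 4.70. The 95th percentile of the reporter means was 7.60, above the CPT1A mean of 7.54 as well, and the highest was 13.67. How much of the signal of CPT2, or of any other member, is its own transcript was not tested. The small span of CPT2, its slopes and its correlations are read here with that limit. Signals of different probe sets are not on a common scale, so the members' levels were not ranked against each other.

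The blocks of title numbers accounted for 5.17% of the variance of CPT1A, 8.77% of that of CPT1B, 11.1% of that of SLC25A20 and 2.37% of that of CPT2. Block means of CPT1A lay between 7.40 and 7.73, those of CPT1B between 7.60 and 8.0 and those of SLC25A20 between 8.66 and 9.03. For CPT1B and SLC25A20 these ranges were wider than the SD over all animals, and for CPT1A narrower.

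Pigs with a larger fat area carried less CPT1A transcript, and the other 3 members did not pass the test. In the leanest pigs, with 8.1 to 12.7 cm2, CPT1A ran from 6.76 through a median of 7.75 to 8.27, with a mean of 7.71 ± 0.367 (SD, n = 52). From 12.8 to 14.5 cm2 it ran from 6.46 through 7.665 to 8.55, with a mean of 7.67 ± 0.400 (SD, n = 52). From 14.6 to 17.0 cm2 it ran from 6.43 through 7.51 to 8.91, with a mean of 7.46 ± 0.474 (SD, n = 45). In the fattest pigs, with 17.1 to 26.7 cm2, it ran from 6.57 through 7.335 to 8.42, with a mean of 7.37 ± 0.444 (SD, n = 50). These 4 classes of about equal size overlapped over most of their range, and their medians went down from each to the next; they serve as a description only.

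At the ends of the trait the values also overlapped, but only through 1 animal at each end. The 6 leanest animals, with 8.1, 8.9, 9.4, 9.7, 9.9 and 9.9 cm2, had CPT1A at 7.80, 7.79, 8.03, 7.74, 7.96 and 7.24. The 6 fattest, with 22.4, 22.4, 22.5, 23.0, 23.7 and 26.7 cm2, had it at 7.27, 7.02, 7.40, 7.86, 6.80 and 7.45. Of the fattest only the animal with 23.0 cm2 lay above 7.45, and of the leanest only 1 of the 2 with 9.9 cm2 lay below 7.74.

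Per SD of fat area CPT1A fell by 0.125 ± 0.030 in log2 expression (SE, n = 207 less 8, 95% interval of the slope -0.184 to -0.066), a change of -8.31% per SD (limma, adjusted p = 0.038, unadjusted p = 4.3e-05). It stood at rank 27 by p among the 23935 probe sets, of which 0.121% passed in either direction, 0.0752% downward and 0.046% upward. Fat area accounted for 8.0% of the variance of CPT1A. The adjusted p lay close to the threshold of 0.05, and the slope was negative in all 20 alternative fits, from -0.132 to -0.098, of which 14 passed (adjusted p 0.018 to 0.94 over all 20). Without the 24 low-correlation arrays it was -0.132 (adjusted p = 0.018). It did not pass with the blocks in the fit (-0.121 ± 0.031, adjusted p = 0.071), without the 13 arrays that lack spike-in signal (-0.120 ± 0.030, adjusted p = 0.084) or without the 2 animals farthest from the median fat area (-0.126 ± 0.032, adjusted p = 0.058). Inside the blocks, which held 8 to 35 animals with a fat area, the slope ran from -0.29 to 0.0093 and was negative in 9 of 10. It was -0.122 ± 0.033 (SE) in the lower number series and -0.163 ± 0.074 in the higher (n = 25).

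**Figure D1:**
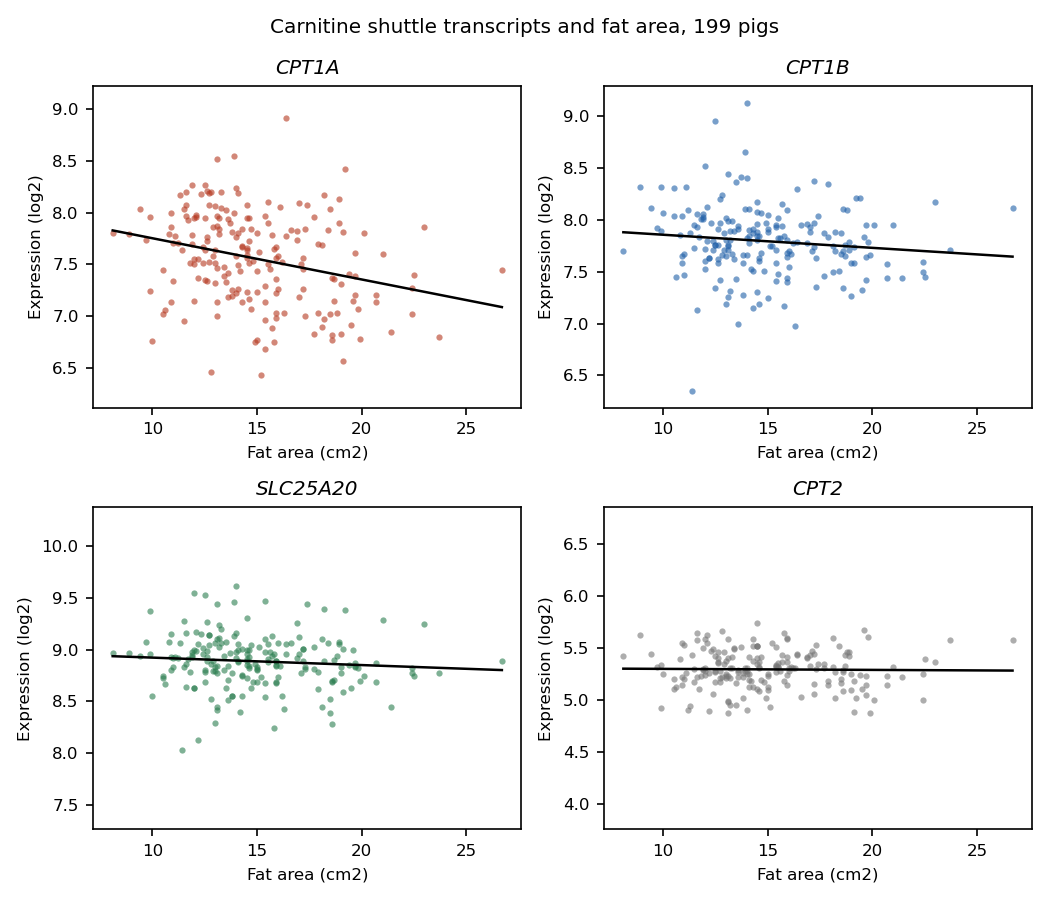
Each point is a pig with a fat area (horizontal axis, cm2), with the log2 expression of CPT1A, CPT1B, SLC25A20 or CPT2 on the vertical axis, all 4 panels spanning the same log2 range, and the line is the limma fit. The CPT1A line goes down by 0.125 per SD of 3.15 cm2 through a wide cloud, and the CPT2 line is nearly level.

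CPT1B had a slope of -0.040 ± 0.024 per SD of fat area (SE, n = 207 less 8, 95% interval -0.086 to 0.0068, limma adjusted p = 0.775). Its mean was 7.85 ± 0.380 (SD, n = 52) in the leanest class and 7.75 ± 0.271 (SD, n = 50) in the fattest. SLC25A20 had a slope of -0.023 ± 0.018 (95% interval -0.058 to 0.013, adjusted p = 0.860), with means of 8.93 ± 0.271 and 8.85 ± 0.244 (SD) in the same classes. CPT2 had a slope of -0.0031 ± 0.013 (95% interval -0.029 to 0.023, adjusted p = 0.986), with means of 5.30 ± 0.188 and 5.27 ± 0.192 (SD). The interval of CPT1B reaches down to -0.086, so that a decrease of that size is not excluded by these data. Of the 4 members only CPT1A had an unadjusted p under 0.05, as did 7.07% of all probe sets.

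That 1 member passed and another did not is no difference between them, so the slopes were compared directly, from the log2 difference of a pair of members in each animal. Signals of different probe sets are not on a common scale, so a difference here is one between probe sets. The SD over animals was 0.444 for CPT1A, 0.334 for CPT1B, 0.249 for SLC25A20 and 0.182 for CPT2, and slopes scaled to it were not compared. The slope of CPT1A was lower than that of SLC25A20 by 0.103 ± 0.025 per SD of fat area (SE, n = 207 less 8, permutation p = 9e-05, adjusted p = 0.0011 over 12 comparisons, two-sided). Against CPT2 the difference was -0.122 ± 0.032 (permutation p = 2.2e-04, adjusted p = 0.0013). Against CPT1B, the other isoform of the same step, it was -0.0853 ± 0.030 (95% interval -0.145 to -0.026, permutation p = 0.0054, adjusted p = 0.022). The first 2 differences passed under each alternative tried. That from CPT1B did not pass with 5 principal components as covariates (-0.0679, adjusted permutation p = 0.080), without the 2 animals of most extreme fat area (-0.0762, adjusted permutation p = 0.079), with the sex-linked component described below (-0.0588, adjusted permutation p = 0.19) or with blocks and without the low-correlation arrays (-0.072, adjusted permutation p = 0.050). Among CPT1B, SLC25A20 and CPT2 the 3 differences for fat area ran from -0.037 to 0.020 and did not pass (adjusted permutation p 0.52 to 0.63).

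Other transcripts moved with fat area or with CPT1A in the same samples. The mean of 6 endothelial markers, the cells that line blood vessels, correlated with CPT1A (r = 0.288, rho = 0.256, n = 207, adjusted permutation p = 3.6e-04 and 0.0029 over 12 measures; r = 0.318 without the 2 animals farthest from the median and 0.316 within blocks). It was lower with fat area (r = -0.237, rho = -0.225, n = 207 less 8, adjusted permutation p = 0.010 and 0.020; r = -0.225 without the 2 farthest and -0.275 within blocks). Of the 6 markers 0 passed singly for fat area in limma, and 2 had an unadjusted p under 0.05: PECAM1 at -0.083 ± 0.021 (SE, adjusted p = 0.072) and CDH5 at -0.071 ± 0.020 (adjusted p = 0.156). With blocks in the fit 1 of the 6 passed, PECAM1 at -0.087 ± 0.021 (adjusted p = 0.032). Marker means ran from 7.31 to 8.12. With this mean in the fit the slope of CPT1A was -0.098 ± 0.030 (SE, n = 207 less 8, adjusted p = 0.317).

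The labels give no sex, and no animal was assigned one. A sex-linked component was taken from the probe sets of the Y-linked EIF1AY and SRY. With their first principal component as a covariate, CPT1A had a slope of -0.111 ± 0.033 (SE, n = 207 less 8, unadjusted p = 8.3e-04, limma adjusted p = 0.937). In that fit 0 of all probe sets passed, while 1165 had an unadjusted p under 0.05. With the component and the blocks together the slope was -0.106 ± 0.034 (adjusted p = 0.904).

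The adipocyte marker mean (5 of 7 measured, 7.23 to 8.74 over the arrays) correlated with CPT1A (r = 0.237, rho = 0.227, n = 207, adjusted permutation p = 0.0040 and 0.0064; r = 0.237 without the 2 farthest and 0.262 within blocks). It did not correlate detectably with fat area (r = 0.005, rho = -0.017, adjusted permutation p = 0.95 and 0.89; r = -0.007 without the 2 farthest and 0.033 within blocks). With it in the fit the slope of CPT1A was -0.126 ± 0.029 (SE, adjusted p = 0.024). CPT1A is the liver isoform, and the array with the highest liver marker mean (12.78, ALB at 14.58) also had the highest CPT1A, at 8.91, while the next (12.76) stood at rank 9 with 8.20. In the 13 arrays with a liver marker mean over 9, CPT1A ran from 7.0 through 7.64 to 8.91, and in all others from 6.43 through 7.56 to 8.55, so the ranges overlapped widely. The other 7 marker lists, the balance of slow over fast fibre markers, the 3' to 5' signal difference and the array correlation had adjusted permutation p from 0.073 to 0.89 for r with CPT1A and from 0.81 to 0.95 for r with fat area. Without the 13 arrays high in liver markers the slope of CPT1A on fat area was -0.131 ± 0.030 (SE, adjusted p = 0.024).

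**Figure D2:**
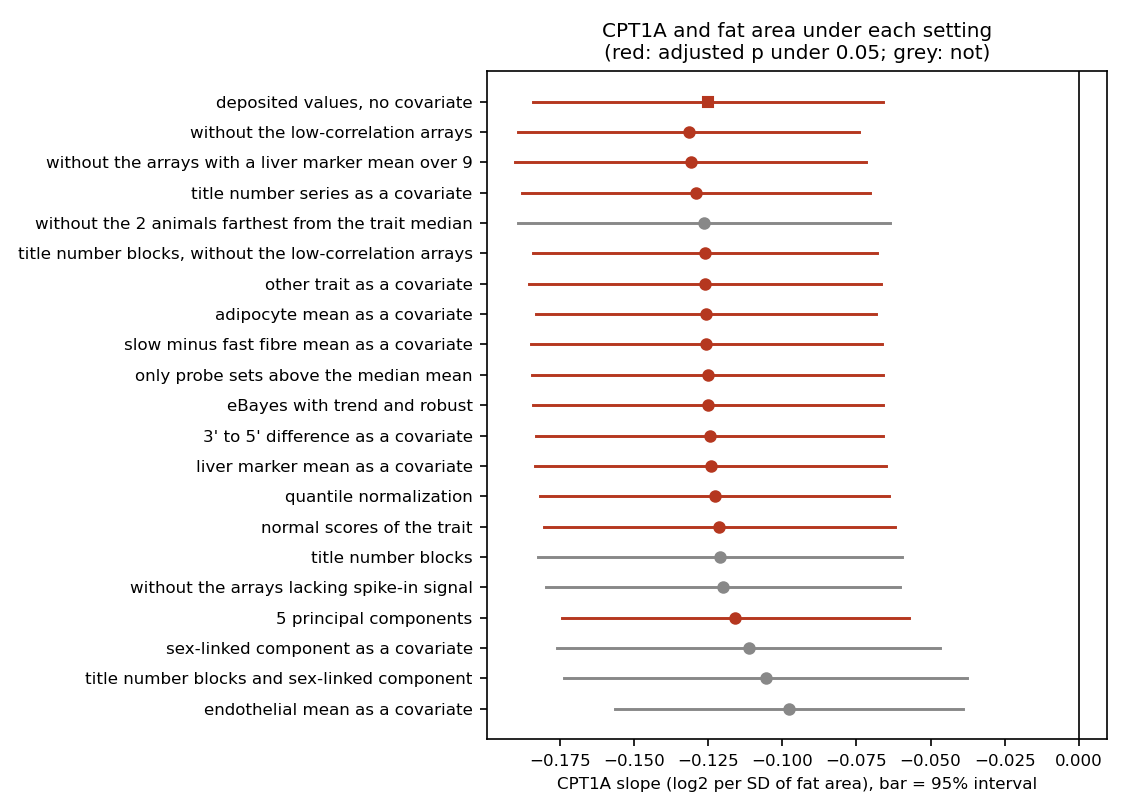
Slope of CPT1A (log2 per SD of fat area, horizontal axis) in the fit of the deposited values without covariates (square) and under 20 alternatives (circles), each with its 95% interval; red marks an adjusted p under 0.05. All 21 slopes lie between -0.132 and -0.098 with intervals below 0, and 6 of the alternatives are grey.

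For drip loss 0 of the 4 members passed, and 0 of 4 had an unadjusted p under 0.05, while 4.61% of all 23935 probe sets passed (1.94% upward and 2.67% downward) and 19.3% had an unadjusted p under 0.05. The slope of CPT1A on drip loss was 0.0020 ± 0.031 (log2 per SD, SE, n = 207, 95% interval -0.058 to 0.062, limma adjusted p = 0.983). In the 52 animals with the least drip (1.45 to 3.58%) it ran from 6.43 through 7.59 to 8.55, and in the 52 with the most (7.22 to 10.82%) from 6.57 through 7.54 to 8.27. These ranges nearly coincided. SLC25A20 had the largest of the 4 slopes, 0.028 ± 0.017 (95% interval -0.0060 to 0.062, adjusted p = 0.376), with means of 8.84 ± 0.274 and 8.89 ± 0.173 (SD, n = 52 each) in the same animals. CPT1B had 0.020 ± 0.023 (95% interval -0.026 to 0.065, adjusted p = 0.695) and CPT2 0.018 ± 0.013 (95% interval -0.0070 to 0.043, adjusted p = 0.455). No pair of members differed in this slope (6 differences, -0.026 to 0.0016, adjusted permutation p 0.63 to 0.95).

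**Figure D3:**
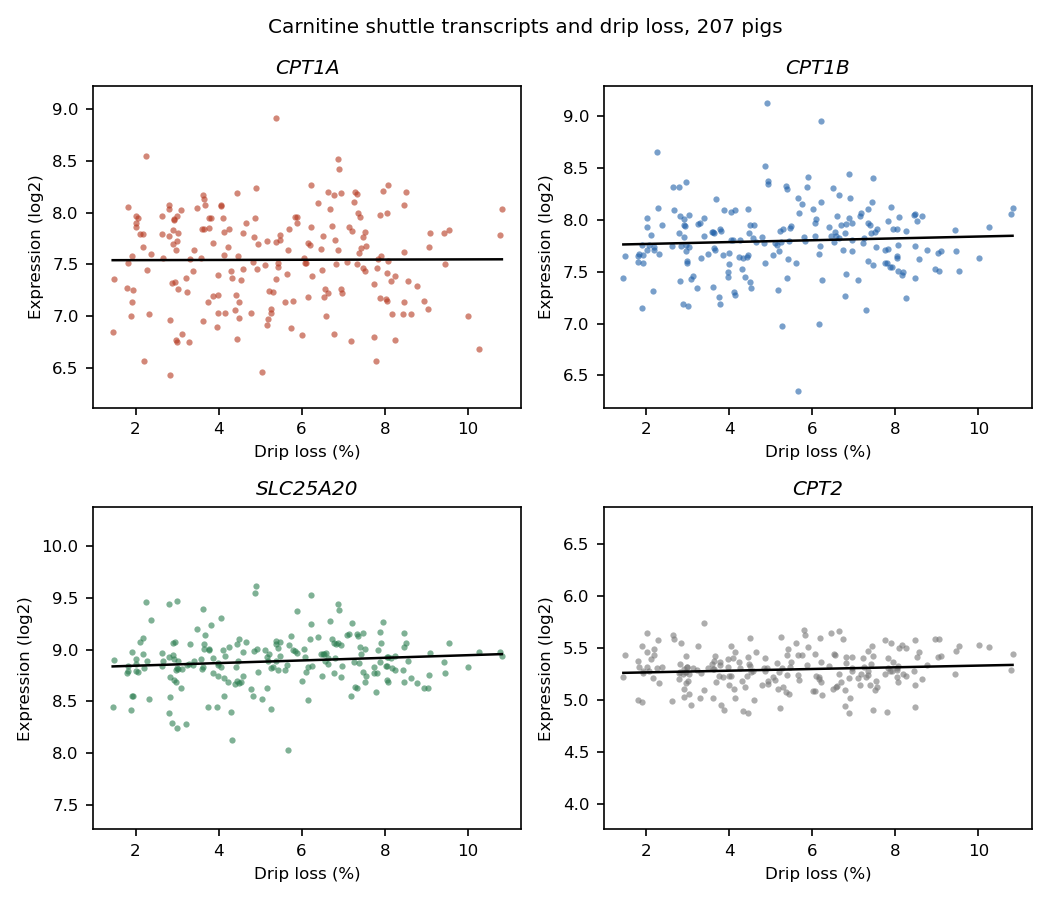
Each point is 1 of 207 pigs, with drip loss (%) on the horizontal axis and the log2 expression of each member on the vertical axis, all panels spanning the same log2 range; the line is the limma fit. The lines are close to level, with slopes from 0.0020 (CPT1A) to 0.028 (SLC25A20) per SD of 2.22%.

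Whether a member responded differently to the traits was tested in a fit with both, as the fat area slope minus the drip loss slope. For CPT1A the difference was -0.117 ± 0.041 (SE, n = 207 less 8, unadjusted p = 0.0042) and did not pass (limma adjusted p = 0.166); 0.347% of all probe sets did. It was -0.048 ± 0.024 for SLC25A20 (unadjusted p = 0.048, adjusted p = 0.392), -0.056 ± 0.032 for CPT1B (adjusted p = 0.463) and -0.020 ± 0.018 for CPT2 (adjusted p = 0.672). The relation of CPT1A to fat area is therefore not shown to differ from its relation to drip loss once all probe sets are adjusted for.

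Across animals the translocase varied together with both isoforms of the first enzyme. CPT1B and SLC25A20 had r = 0.622 (95% interval 0.531 to 0.699) and rho = 0.537, and CPT1A and SLC25A20 had r = 0.556 (95% interval 0.454 to 0.644) and rho = 0.590. CPT1A and CPT1B, the isoforms of 1 step, had r = 0.389 (95% interval 0.267 to 0.499) and rho = 0.397. For each of these r and rho the permutation p was 1e-05, which is the smallest they can give with 100000 resamples, and the adjusted p over 6 pairs was 2e-05 (n = 207, two-sided). The shared variance was 38.7%, 30.9% and 15.1%, respectively. The values of a pair come from the same array. With the 3' to 5' signal difference as a covariate r was 0.621, 0.556 and 0.383, in the same order. It was 0.632, 0.553 and 0.396 with quantile normalization, and 0.584, 0.650 and 0.420 with 5 principal components as covariates. Any part of shared scaling or RNA quality beyond these settings was not tested.

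Without the 2 animals farthest from the median of the first gene of a pair, r was 0.570 for CPT1B and SLC25A20, 0.562 for CPT1A and SLC25A20 and 0.382 for CPT1A and CPT1B. With values centred within blocks these were 0.597, 0.551 and 0.385. In the lower number series they were 0.591, 0.519 and 0.386, and in the higher (n = 33) 0.704, 0.736 and 0.403. In the higher series CPT1A and CPT1B passed by r (adjusted permutation p = 0.040) and not by rank (rho = 0.345, adjusted permutation p = 0.097). Over the single blocks they ran from 0.081 to 0.891, from 0.298 to 0.803 and from 0.031 to 0.746, positive in 10 of 10 blocks for each pair. Without the 24 low-correlation arrays, which hold the extreme animals named above, they were 0.589, 0.618 and 0.432.

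The CPT2 probe set stood apart from those of the other members, with the limit on its signal given above. Its r was 0.064 with CPT1A (rho = 0.103, adjusted permutation p = 0.43 and 0.17), 0.000 with CPT1B (rho = 0.037, adjusted permutation p = 1.0 and 0.60) and 0.099 with SLC25A20 (rho = 0.156, adjusted permutation p = 0.24 and 0.038). The last pair passed by rank and not by r. The rank call was lost with blocks (rho = 0.131, adjusted permutation p = 0.097), with 5 principal components (rho = 0.004, adjusted permutation p = 0.95), without the low-correlation arrays (rho = 0.124, adjusted permutation p = 0.14), with both blocks and those arrays taken out (rho = 0.105, adjusted permutation p = 0.20) and without the arrays high in liver markers (rho = 0.148, adjusted permutation p = 0.061). With quantile normalization the pair passed by both (r = 0.171, rho = 0.213, adjusted permutation p = 0.021 and 0.0033). The rank call was kept with the 3' to 5' difference, the endothelial mean or the sex-linked component as covariate (adjusted permutation p 0.037 to 0.045). It was also kept without the arrays lacking spike-in signal or the 2 animals farthest from the CPT2 median (adjusted permutation p = 0.041 and 0.021). In the higher number series (n = 33) r with CPT2 was negative for all 3 partners, -0.17 for CPT1A, -0.313 for CPT1B and -0.157 for SLC25A20 (rho = -0.241), and did not pass (adjusted permutation p 0.11 to 0.38).

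**Figure D4:**
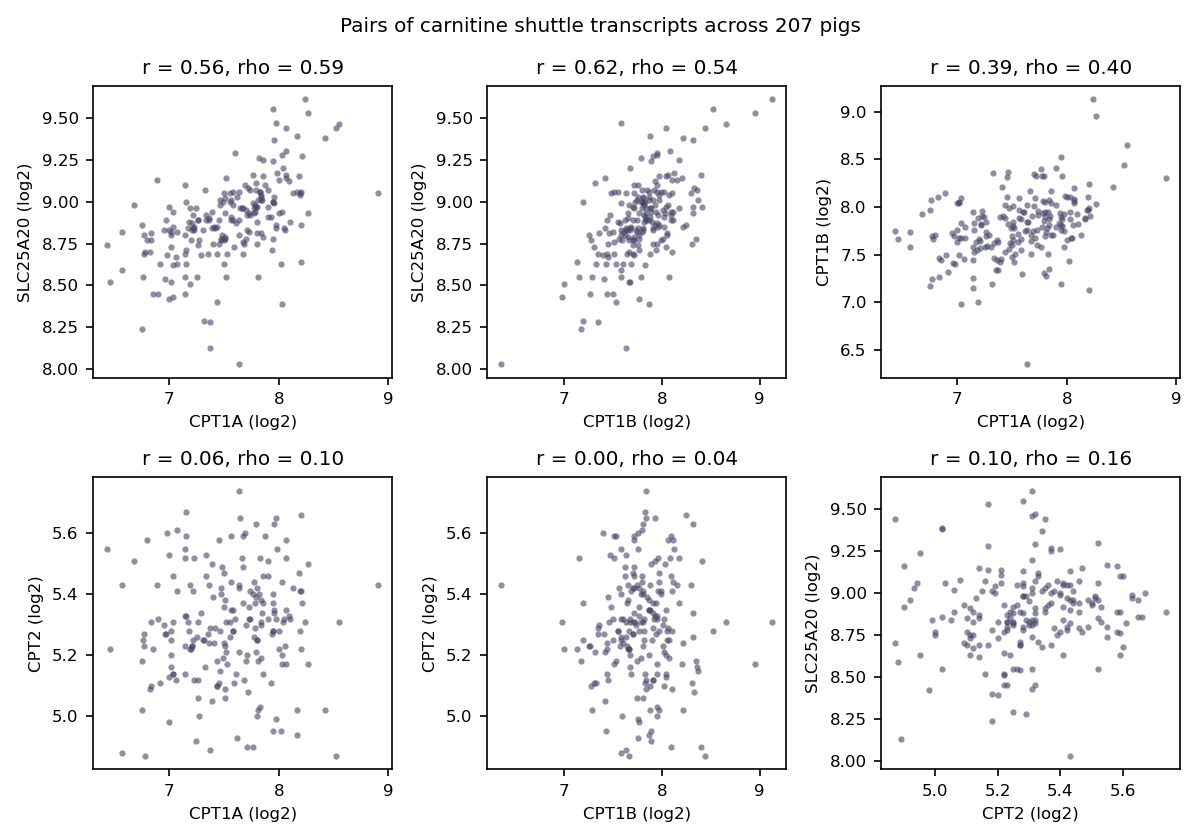
Each of the 6 panels sets the log2 values of a pair of members against each other, with 1 point per pig (n = 207) and Pearson's r and Spearman's rho above it. The clouds of the pairs among CPT1A, CPT1B and SLC25A20 slope upward (r from 0.389 to 0.622), and the pairs with CPT2 show none or little of this (r from 0.000 to 0.099). In CPT1B 1 animal lies far below the rest, and it is also the lowest in SLC25A20.

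Set against every other probe set of the array, SLC25A20 and each CPT1 isoform were among each other's closest companions, while CPT2 was close to no member. SLC25A20 ranked number 2 of 23934 by r with CPT1B and number 6 with CPT1A, and CPT1B ranked number 2 and CPT1A number 17 with SLC25A20. CPT1B ranked number 41 with CPT1A, and CPT1A number 226 with CPT1B. The median r of all probe sets was -0.003 with CPT1A, -0.027 with CPT1B and -0.013 with SLC25A20, and the 95th percentiles were 0.185, 0.240 and 0.291. CPT2 ranked between 4284 and 11140 in the order of the others or they in its own.

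The single-symbol genes of above-median signal most like CPT1A were KLF11, a Krüppel-like transcription factor (r = 0.664, rho = 0.692), the uncoupling protein UCP3 (r = 0.604, rho = 0.637), ANGPTL4, a secreted inhibitor of lipoprotein lipase (r = 0.583, rho = 0.604), SLC25A20, and PDK4, the kinase that shuts off pyruvate dehydrogenase in fasting (r = 0.525, rho = 0.558). All values are over 207 arrays and describe these samples, without a test. A second probe set gave 0.630 for KLF11, 0.543 for UCP3, 0.472 for ANGPTL4 and 0.521 for PDK4. Within blocks the r of these 4 genes lay between 0.544 (PDK4) and 0.675 (KLF11), and without the 13 arrays high in liver markers between 0.537 (PDK4) and 0.667 (KLF11). The lowest r were those of FAM46C (-0.425), SRPRA (-0.418) and ARL6IP5 (-0.355).

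For CPT1B the list was headed by ACADVL, the very long-chain acyl-CoA dehydrogenase that takes the first step of beta-oxidation (r = 0.739, rho = 0.697). SLC25A20 came next, then FABP3, the fatty acid binding protein of heart and muscle (r = 0.622, rho = 0.614), the mitochondrial oxoglutarate carrier SLC25A11 (r = 0.612, rho = 0.563) and the matrix isomerase PPIF (r = 0.579, rho = 0.556). Without the low-correlation arrays ACADVL was at 0.720 and FABP3 at 0.640. For SLC25A20 the list was CPT1B, the deoxyhypusine synthase DHPS (r = 0.620), ASB8 (r = 0.606), TBC1D17 (r = 0.601) and UCP3 (r = 0.589). For CPT2 the highest were PPIL2 (r = 0.404), IL1B (r = 0.389), ELAC2 (r = 0.375), EEF1A1 (r = 0.370) and BCAP29 (r = 0.358). UCP3 was the only gene outside the shuttle in more than 1 of these lists of 5.

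The other genes of the pathway were described through 8 lists with 83 genes, of which 65 were measured, CPT1A included. For fat area 1 of the 65 passed, CPT1A itself, where 0.121% of all probe sets passed. For drip loss 3 of 65 passed, a share close to the 4.61% of all probe sets.

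Among transcripts that respond to fasting and to PPAR receptors, 8 of 11 were measured. For fat area 1 of 8 passed, 7 of 8 slopes were negative and 5 had an unadjusted p under 0.05, against 0.121% of all probe sets that passed and 7.07% with such a p. The median slope was -0.102, against -0.0018 over all probe sets. With blocks and the sex-linked component in the fit 0 passed, 2 had an unadjusted p under 0.05 and the median slope was -0.076. Besides CPT1A the members with an unadjusted p under 0.05 were ANGPTL4 (-0.144 ± 0.049, SE, n = 207 less 8, limma adjusted p = 0.397), TXNIP (-0.079 ± 0.028, adjusted p = 0.443), PDK4 (-0.142 ± 0.059, adjusted p = 0.579) and UCP3 (-0.139 ± 0.066, adjusted p = 0.664). None of these 4 passed over all probe sets. The list holds CPT1A and genes that covary with it, so its members are not separate pieces of evidence. For drip loss 0 of 8 passed, with a median slope of -0.013.

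Matrix beta-oxidation, the pathway that the shuttle feeds, was measured by 17 of 18 genes. For fat area 0 passed, 0 had an unadjusted p under 0.05, and the median slope was -0.0018. For drip loss 15 of 17 slopes were positive and 5 had an unadjusted p under 0.05, as did 19.3% of all probe sets, with a median slope of 0.024 against 0.0023 over all probe sets. Without the low-correlation arrays 13 slopes were positive, 2 had an unadjusted p under 0.05, 0 passed and the median slope was 0.0062; with blocks 12 were positive, 4 had such a p and the median was 0.016. The enoyl-CoA isomerase ECI1 rose with drip loss by 0.080 ± 0.020 (log2 per SD, SE, n = 207, limma adjusted p = 0.011), and did not pass with blocks in the fit (0.068 ± 0.021, adjusted p = 0.091). ACADVL, the gene closest to CPT1B, had a slope of 0.032 ± 0.019 (adjusted p = 0.339).

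The malonyl-CoA and AMPK list holds genes that act on malonyl-CoA, the inhibitor of the first step, and genes of the kinase AMPK. Of these 10 of 12 were measured and 0 passed for fat area. ACACB and MLYCD had no single-symbol probe set, so breakdown of the inhibitor by MLYCD was not covered. For drip loss the AMPK subunit PRKAG3 rose by 0.055 ± 0.017 (SE, n = 207, limma adjusted p = 0.042) and PRKAG2 fell by 0.162 ± 0.051 (adjusted p = 0.042). Neither passed with blocks in the fit (adjusted p = 0.077 and 0.37) or without the low-correlation arrays. In fatty acid uptake and binding 7 of 9 were measured and 0 passed for either trait. The lowest p for fat area were those of CAV1, the caveolar coat protein (-0.058 ± 0.018, n = 207 less 8, adjusted p = 0.305), and the fatty acid binding protein FABP5 (-0.051 ± 0.017, adjusted p = 0.362).

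Of the genes for carnitine supply and other carnitine acyltransferases 5 of 9 were measured and 0 passed for either trait. SLC22A5, the carnitine transporter of the cell membrane, had a slope of -0.029 ± 0.019 on fat area (SE, n = 207 less 8, limma adjusted p = 0.806), and CRAT, which acts on short acyl chains, one of -0.017 ± 0.016 (adjusted p = 0.883). The activation list (8 of 10 measured), the outer membrane channels (3 of 3) and the regulators (7 of 11) also held 0 genes that passed for either trait. The coactivator PPARGC1A had a slope of -0.27 ± 0.087 on drip loss (n = 207, adjusted p = 0.051).

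How closely the genes of a list followed each member is given as the median of r over 207 arrays, and differences between these medians were not tested. For the fasting and PPAR list without CPT1A the median r with CPT1A was 0.413 (7 genes, -0.035 to 0.604); for the whole list it was 0.218 with CPT1B, 0.176 with SLC25A20 and -0.023 with CPT2. For the 17 beta-oxidation genes it was 0.114 with CPT1A, 0.353 with CPT1B, 0.338 with SLC25A20 and 0.024 with CPT2. PDK4 (the brighter probe set) had r = 0.521 with CPT1A and 0.144 with CPT1B, while ACADVL had 0.200 and 0.739. ECI1 had 0.077 with CPT1A and 0.533 with CPT1B.

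Some genes followed both isoforms. ACSL1, which activates long-chain fatty acids upstream of the shuttle, had r = 0.520 with CPT1A, 0.502 with CPT1B and 0.398 with SLC25A20. CRAT had 0.330, 0.464 and 0.507, and UCP3 had 0.604, 0.405 and 0.589. The other activation genes had lower values, and the median r of that list was -0.060 with CPT1A and -0.158 with CPT1B. The regulators, PPARA and PPARGC1A among them, lay between -0.148 and 0.218 with CPT1A.

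**Figure D5:**
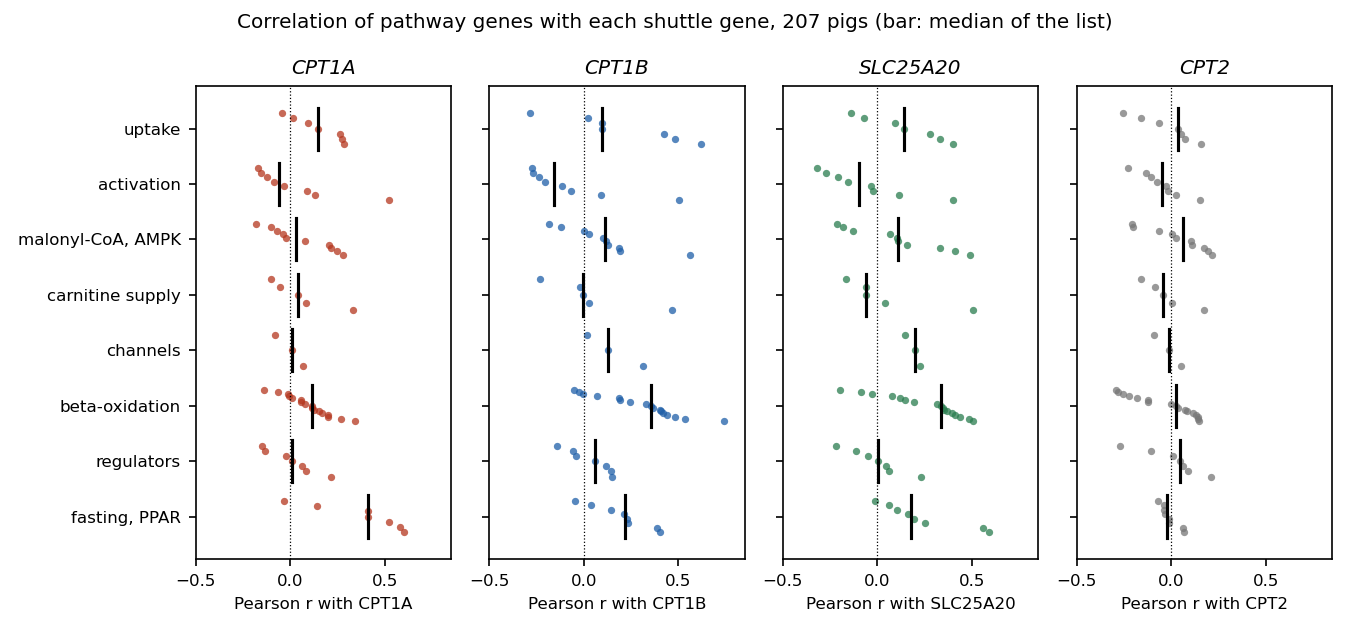
Pearson's r over 207 pigs (horizontal axis) of each measured gene of the 8 pathway lists (rows) with CPT1A, CPT1B, SLC25A20 and CPT2 (panels); points are genes, spread vertically by rank, and the bar is the list's median. The fasting and PPAR list lies farthest right for CPT1A (median 0.413) and the beta-oxidation list for CPT1B (0.353) and SLC25A20 (0.338), while the medians for CPT2 stay near 0.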

How the data were processed

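The authors deposited 1 log2 value per probe set and array for 207 arrays, made with GCOS 1.1.1 and PLIER, per the submitters' processing notes; scaling between arrays and the genome build are not given in the sources used here. They were used as deposited, with a floor at 4. Of 24123 probe sets 188 controls were left out. Gene symbols came from the array annotation, and no coordinates were used.

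Expression of all probe sets was fitted to fat area or drip loss in units of 1 SD (limma 3.58.1 in R 4.3.3, lmFit and eBayes). The p-values, two-sided, were adjusted by Benjamini-Hochberg over 23935 probe sets and called under 0.05. A fit with both traits tested the difference of their slopes. Pairs of members were compared with 100000 permutations (NumPy 2.4.6). The steps were checked on simulated data. For pathway lists, the probe set with the highest mean stood for a gene.

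The named genes were the members, the 5 genes with the highest r with each member, the 3 with the lowest for CPT1A, and from each list those that passed or had the smallest p; further list genes were chosen after their values were seen. Members, lists and tests were chosen with earlier results of these data known. The alternatives were quantile normalization, a signal filter, title numbers, principal components, normal scores, array sets left out, control-transcript 3' to 5' difference, the other trait, marker means and the sex-linked component as covariates, and eBayes with trend and robust.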

Additional observations from a re-analysis of the deposited data

How the results depend on the processing

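The blocks with the sex-linked component, the endothelial and liver covariates, the liver array set, and, for pairs of members, the sex-linked component and the blocks without low-correlation arrays were added after seeing the data. Alternative values were graded for the members' slopes and counts, slope differences, r of pairs and pathway counts. Of these 473 were kept, 22 were weaker, 16 turned sign and 1 newly passed (r of CPT2 and SLC25A20, 0.171 with quantile normalization). For slopes, differences and r, kept means the same direction and side of the threshold, and weaker means no longer passing. Kept therefore includes values that passed neither in the main fit nor in the alternative. A count was kept if it stayed equal or changed little, and weaker if it fell further. Counts fall together with the slopes behind them, so these values are not separate tests. The count of members past the threshold for fat area in limma was 1 in the main fit and 0 in 6 alternatives. In these 6 the CPT1A slope was -0.0977 with the endothelial mean, -0.111 with the sex-linked component and -0.121 with blocks. It was -0.106 with the component and blocks together, -0.126 without the 2 farthest animals and -0.120 without the spike-less arrays. The pathway count for fat area was 0 with blocks, the sex-linked component or both. For drip loss it was 0 with blocks, with both, or without low-correlation arrays. Unadjusted p for CPT1A stayed at 0.0025 or below in all 20 alternatives; the cause of these losses was not tested.

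The 16 that turned sign had not passed. For fat area, CPT2 had slopes of 0.00026 (endothelial mean), 0.0097 (sex-linked component) and 0.012 (that and blocks), and CPT1B minus SLC25A20 one of 0.0021 (endothelial mean). For drip loss, CPT1A had -0.00013 (liver mean), -0.0085 (fat area as covariate), -0.0071 (without the 2 farthest animals) and -0.012 (without spike-less arrays), and CPT1B minus CPT2 had -0.0018 (blocks, without low-correlation arrays), -0.0038 (without the 2 farthest) and -0.0039 (without spike-less arrays). With 5 principal components SLC25A20 had -0.0014, CPT1A minus SLC25A20 0.0027, CPT1B minus SLC25A20 0.019, CPT2 minus SLC25A20 0.012, and r of CPT2 and SLC25A20 was -0.032. CPT2 had no value under the filter on signal. No paired analysis was possible because all animals form 1 group.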
